A study of Bos taurus with 94 samples.

Results

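The genes described here were chosen by their measured values: each was higher in all 8 brain libraries than in every library outside the brain, the posterior pituitary and the pituitary stalk being set aside. On the log2(FPKM + 1) scale (FPKM, a count of sequenced fragments divided by transcript length and by library size), the lowest of the 8 brain libraries minus the highest of 84 other libraries gave each gene a gap, and 150 places were to be filled in order of that gap, leaving out 2 genes that the rule names. Of 24616 genes, 136 had a gap above 0. The remaining 14 places fell on 2576 genes tied at a gap of exactly 0, of which 2373 were listed at 0 in every library. These ties cannot be ranked, so the 136 genes are described and are called brain-leading genes. Of the tied genes, 172 were above 0 in at least 1 brain library and 49 in at least 1 of the 2 pituitary libraries.

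The libraries are from Hereford cattle of the age label adult, with no treatment named and 1 RNA sequencing library for nearly every tissue. Among the libraries outside the brain, 1 has the tissue label fetal testis. The brain libraries were grouped as telencephalon (cerebral cortex, frontal cortex, temporal cortex and hippocampus, n = 4) and deep brain (thalamus, diencephalon, midbrain and pons, n = 4). The posterior pituitary and the pituitary stalk with the median eminence are 1 library each. The labels name no animal, so libraries of a group are different regions, perhaps of the same animal, and p-values measure the spread between these libraries only.

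As background, brain tissue is a mixture of neurons, myelin-forming oligodendrocytes, astrocytes and microglia, and grey and white matter differ in their proportions. The thalamus, midbrain and pons hold large myelinated tracts, and the cortex and hippocampus hold densely packed neuron cell bodies. The median eminence and the posterior pituitary are outgrowths of the floor of the hypothalamus. They consist largely of axon endings of hypothalamic neurons and of glia-like cells, with few neuron cell bodies. The files do not pair the Ensembl identifiers with gene names and 0 of 24616 could be matched to a symbol. Roles of single genes, and the marker genes of neurons, glia and pituitary cells, could therefore not be read, and a few genes are given by identifier. Since the tissue is bulk, fewer cells of a type and less RNA per cell cannot be told apart.

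The word restricted suits only some of these genes. At an FPKM of at least 1, the median gene was found in 38 of the 84 other libraries. A total of 20 of the 136 genes were at that level in all 84, and 14 in none of them. The highest level outside the brain had a median of 18.1 FPKM over the genes (lowest 0.0422, highest 253), against a median of 78.6 FPKM for the brain median (lowest 0.224, highest 2181). The gap that chose the genes was at least 1 on the log2 scale for 48 genes, at least 2 for 20 and at least 3 for 7. Just inside the threshold lay gaps of 0.0295, 0.0091 and 0.0041, and just below 0 lay -0.0016, -0.0040 and -0.0042, so the edge of the list is not a step. The 20 genes with a gap of at least 2 had a median brain level of 161 FPKM and a median highest outside level of 8.49 FPKM. The 14 genes that stayed under 1 FPKM in all 84 other libraries had a median brain level of 6.95 FPKM, with brain medians of single genes from 0.224 to 69.0 FPKM.

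In the brain, the median brain-leading gene stood at 59.3 FPKM in the thalamus, 68.3 in the pons, 72.6 in the temporal cortex, 79.2 in the hippocampus, 80.1 in the cerebral cortex, 85.1 in the frontal cortex, 87.2 in the midbrain and 93.2 in the diencephalon. The 84 libraries outside had medians from 0 to 6.82 FPKM. The highest of those were the anterior eye (6.82), the pigment epithelium of the eye (4.90), the pineal gland (4.78) and the anterior pituitary (3.01), followed by the bull testis (2.33). The highest outside level of single genes was in the anterior eye for 15 genes, the pineal gland for 14, the pigment epithelium for 11 and the bull testis for 11. The infundibulum of the oviduct followed with 6, then the anterior pituitary, the vas deferens and the trachea with 5 each, and the other genes had it in many other tissues. By class of tissue, respiratory libraries held it for 10 genes and lymphoid and blood libraries for 9. Retina, pineal gland and posterior pituitary all derive from the embryonic forebrain, which is given here as background. No library is labelled retina, and whether this origin plays a part in the order was not tested. The rule used the 84 libraries outside, so their order is a description.

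**Figure D1:**
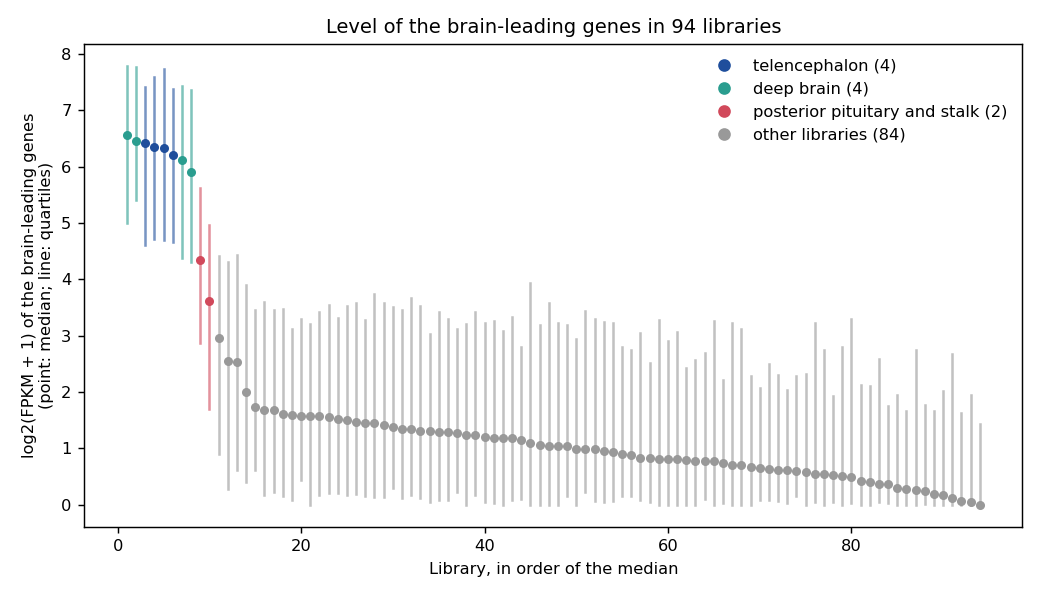
Level of the 136 brain-leading genes in all 94 libraries, in order of the median; the y axis is log2(FPKM + 1), points are medians over the genes and lines run from the lower to the upper quartile. The 8 brain libraries (blue and green) come first with medians from 59.3 to 93.2 FPKM, then the posterior pituitary and the stalk (red) at 19.3 and 11.3 FPKM, then the 84 other libraries (grey), at most 6.82 FPKM.

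A total of 10 libraries outside the brain were treated as unlike their label. Each was set beside its closest library by Spearman's rho. Diaphragm and gall bladder were closest to each other (0.99), the trachea to the aorta (0.98) and the adrenal to the lymph nodes (0.97). The mammary library was closest to the pineal gland (0.86) and the choroid plexus to the triceps muscle (0.84), a looser likeness. Together the 10 held the highest outside level for 17 of the 136 genes, with 5 in the trachea and 0 in the choroid plexus. Ranked without them, 144 genes had a gap above 0 and all 136 were among these.

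The leading gene by gap was ENSBTAG00000017044. Its FPKM was 105 in the cerebral cortex, 112 in the frontal cortex, 196 in the temporal cortex, 328 in the hippocampus, 374 in the pons, 507 in the midbrain, 579 in the thalamus and 712 in the diencephalon. All 4 deep libraries lay above all 4 telencephalon libraries. It was at 24.9 FPKM in the posterior pituitary, 1.75 in the stalk and 3.03 in the pigment epithelium, the highest of the other libraries, and was listed at 0 in the anterior pituitary and the pineal gland. Over the 8 brain and 2 pituitary libraries the genes most like it were ENSBTAG00000004574 and ENSBTAG00000014832, with Pearson's r of 0.99 and 0.98 on the log2 scale over 10 libraries. All 3 genes were low in the stalk, at 1.75, 1.04 and 1.52 FPKM. The stalk was 1 of the 10 libraries used to pick these genes, so this is part of the likeness.

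ENSBTAG00000013534 had both the second largest gap and the highest brain median. It stood at 803 FPKM in the cerebral cortex, 963 in the frontal cortex, 1016 in the hippocampus, 1704 in the diencephalon, 2659 in the temporal cortex, 2741 in the thalamus, 3938 in the midbrain and 8141 in the pons. The temporal cortex was the 1 telencephalon library within the deep range, so the groups overlapped. In the posterior pituitary it reached 324 FPKM and in the stalk 191, and elsewhere at most 36.4, in the larynx. This 1 gene made up 26.3% of the FPKM of all brain-leading genes in the pons and 6.66% in the diencephalon. Next by brain level was ENSBTAG00000013099, with 356 FPKM in the thalamus and 798 to 1350 in the other 7 brain libraries. It was also present outside the brain, at 183 FPKM in the anterior eye and 101 in the anterior pituitary.

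Regional levels were then compared. The rule took the lowest of the 8 brain libraries, so a gene low in any 1 region was less likely to be chosen. Regional levels are therefore not free of the choice. Ranking again without the thalamus kept 111 of the 136 genes, and without the pons 105. The counts of genes without regional overlap given below were not made on these re-ranked lists. Most of the genes differed in level between regions. Highest and lowest brain library were 2.17 apart on the log2 scale in the median brain-leading gene and 1.47 in the median of all 18031 genes tested; it was 1.37 in the median of the genes at 10 FPKM or more in all brain libraries. On the log2(FPKM + 1) scale, only 14 of the 136 genes varied less than 2-fold over the 8 libraries, while 77 varied at least 4-fold and 26 at least 8-fold. The extremes were not spread evenly. Thalamus or pons was the lowest brain library for 66 genes and the highest for 49, the cerebral cortex the lowest for 31 and the highest for 18, and the midbrain the lowest for 2. The rule used the lowest brain library. These counts were not made over all genes, so whether they are particular to the list was not tested. The thalamus and pons libraries also had fewer genes at an FPKM of 1 or more (11170 and 10891) than the other 6 brain libraries (12697 to 13661). Whether this plays a part in their extremes was not tested.

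By the counts of genes without regional overlap, members of the list leaned toward the deep brain. All 4 deep libraries lay above all 4 telencephalon libraries in 21 of the 136 genes (15.4%), against 2.42% of all genes tested. The opposite order was found in 2 of the 136 genes (1.5%), against 1.33% of all genes tested. Brain-leading genes are abundant in the brain. Among the 3778 genes at 10 FPKM or more in all 8 brain libraries, 189 had the deep libraries on top, and 19 of the 105 brain-leading genes of that level did. Quantile normalization gave 13 genes with the deep libraries on top, against 1.77% of all genes tested, and 6 with the telencephalon on top, against 2.71%. With a library left out, 3 stand against 4 and more genes of any kind separate. The deep count was 32 without the pons, against 4.65% of all genes. The telencephalon count was 9 without the temporal cortex, against 3.83% of all genes, and 13 without the diencephalon, against 4.89%. Of the 136 genes, 22 (16.2%) were on average at least 1 log2 unit higher in the deep brain, against 2.34% of all genes. In the telencephalon 19 (14%) were at least 1 higher, against 6.04% of all genes. Both shares were above those of all genes. The median telencephalon minus deep difference was -0.12 over the brain-leading genes and 0.02 over all genes tested.

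No single brain-leading gene passed the regional test. A gene was called where limma's Benjamini-Hochberg adjusted p, taken over the 18031 genes, was under 0.05 and its regional means lay 1 or more log2 units apart. By this rule limma called 0 of the 135 brain-leading genes tested and 0 of all genes (0%). At an unadjusted p under 0.05 there were 42 of the 135, of which 30 were higher in the deep brain and 12 in the telencephalon, against 6.60% of all genes tested. Leaving out 1 brain library moved this count and that of all genes, which was 1190 of 18031 with all 8. Without the cerebral cortex there were 23 brain-leading genes and 638 of all genes. Without the frontal cortex there were 23 and 710, and without the diencephalon 48 and 2121. The remaining gene fell under the filter of 1 FPKM in at least 3 libraries. With the spread taken from all 94 libraries instead of the 8, limma called 17 brain-leading genes, 7 higher in the telencephalon and 10 in the deep brain, and 337 (1.87%) of all genes.

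**Figure D2:**
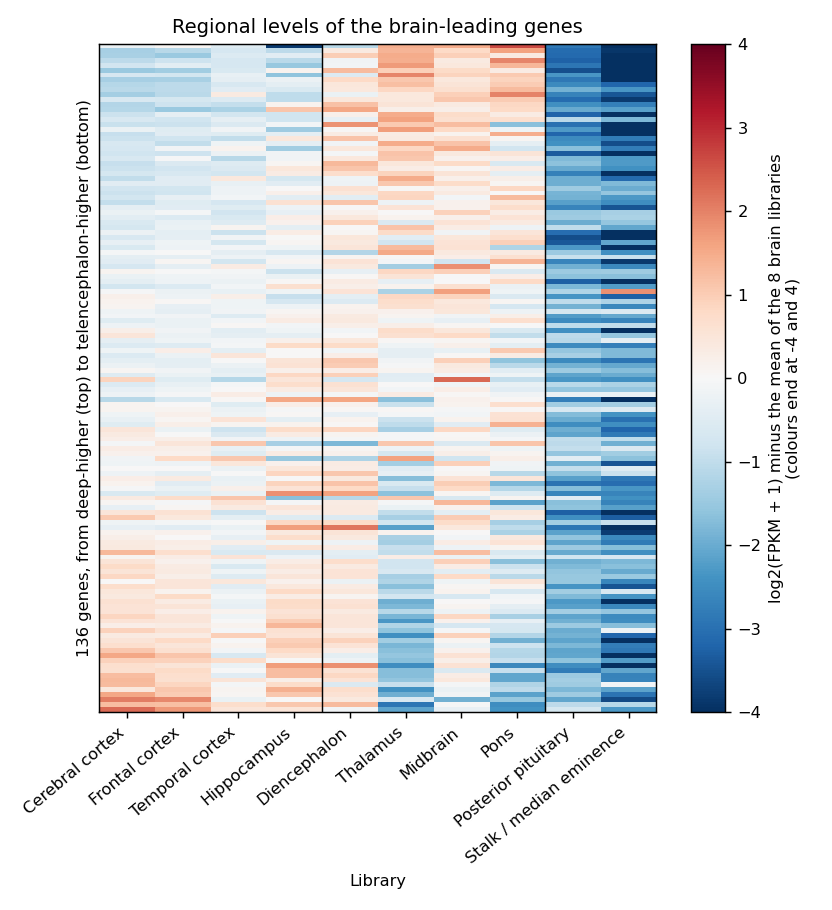
Each row is 1 of the 136 brain-leading genes and each column a library; colour gives log2(FPKM + 1) minus the gene's mean over the 8 brain libraries, and rows run from deep-higher genes at the top to telencephalon-higher genes at the bottom. Thalamus and pons carry the strongest colours within the brain, and nearly every gene is below its brain mean in the 2 pituitary columns at the right.

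Among the genes on the deep side, ENSBTAG00000015784 and ENSBTAG00000014916 had the largest differences. ENSBTAG00000015784 was at 417 FPKM in the pons, 185 in the midbrain, 183 in the thalamus and 30.2 in the diencephalon, and at 70.0 in the frontal cortex, 55.9 in the cerebral cortex, 45.2 in the temporal cortex and 3.68 in the hippocampus. The diencephalon lay within the telencephalon range, so the groups overlapped, and the log2 difference was -2.25 ± 1.10 (SE; limma adjusted p = 0.791). Without the hippocampus, its lowest library, the difference was -1.35. ENSBTAG00000014916 was at 113 FPKM in the pons, 95.5 in the thalamus, 63.7 in the midbrain and 47.2 in the diencephalon. Its 4 telencephalon libraries held 13.8, 16.3, 17.1 and 22.5 FPKM, all below the deep libraries, and its log2 difference was -2.08 ± 0.30 (SE; limma adjusted p = 0.325).

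The genes furthest toward the telencephalon were ENSBTAG00000008028 and ENSBTAG00000035544. ENSBTAG00000008028 was at 824 FPKM in the cerebral cortex, 565 in the frontal cortex, 241 in the temporal cortex and 239 in the hippocampus, above the deep libraries at 157 (diencephalon), 136 (midbrain), 38.5 (thalamus) and 31.9 (pons). Its log2 difference was 2.48 ± 0.68 (SE; limma adjusted p = 0.611), and its level in the pons was close to that in the infundibulum of the oviduct (30.8 FPKM), the highest other library. ENSBTAG00000035544 was at 85.5 to 124 FPKM in the telencephalon and split the deep brain, with 127 in the diencephalon, 49.2 in the midbrain, 8.44 in the pons and 6.14 in the thalamus. The groups overlapped, and the log2 difference was 2.11 ± 0.91 (SE; limma adjusted p = 0.753). Of the 19 genes at least 1 log2 unit higher in the telencephalon, 18 had their lowest brain level in the thalamus or pons.

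**Figure D3:**
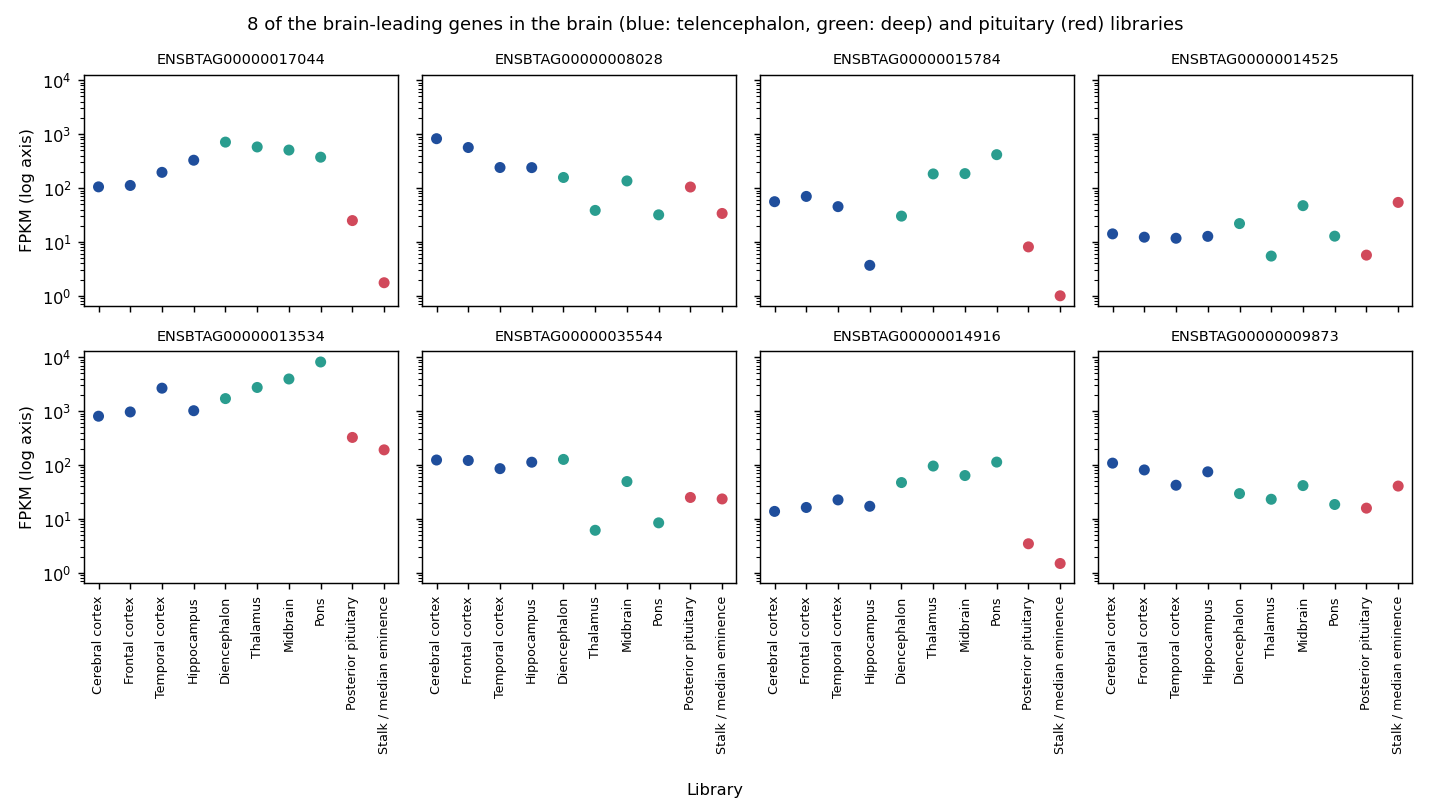
FPKM (log axis) of 8 brain-leading genes in the telencephalon (blue), deep brain (green) and pituitary (red) libraries; each point is 1 library. The left pair has the largest gaps, the next pairs lead toward the telencephalon and the deep brain, and the right pair is highest in the stalk relative to the brain, where ENSBTAG00000014525 reaches 54.2 FPKM.

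Regions paired up in ways that the division into telencephalon and deep brain does not cover. Each gene's deviation from its own brain mean was correlated between libraries across the 136 genes; these are genes and not replicates, and deviations from a shared mean tend toward negative correlations. Cerebral and frontal cortex were closest (Pearson's r = 0.88), followed by hippocampus and diencephalon (0.66) and thalamus and pons (0.50). Thalamus and diencephalon, which overlap anatomically, gave -0.36, and thalamus and hippocampus -0.71. Over all genes tested the same pairs gave 0.69, 0.56, 0.33, -0.48 and -0.52, so this pairing of libraries was not limited to the brain-leading genes. Diencephalon or hippocampus was the highest library for 46 of the 136 genes.

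The share of each brain library taken up by the brain-leading genes was also compared. Their summed FPKM was 3.37% of the library in the thalamus, 3.42% in the pons, 3.98% in the diencephalon and 4.14% in the midbrain. It was 2.30% in the temporal cortex, 2.40% in the frontal cortex, 2.72% in the cerebral cortex and 3.24% in the hippocampus. The means were 3.73 ± 0.39% and 2.67 ± 0.42% (SD, n = 4 each) for the deep brain and the telencephalon, and the groups did not overlap. Without ENSBTAG00000013534, which alone held 0.897% of the pons, the means were 3.20 ± 0.54% and 2.49 ± 0.48% (SD, n = 4 each) and the groups overlapped, with the pons at 2.52% and the hippocampus at 3.09%. The level of the median gene did not follow the share: it averaged 77.0 ± 15.8 FPKM in the deep brain and 79.3 ± 5.14 FPKM in the telencephalon (SD, n = 4 each). Outside the brain the share ran from 0.0866% to 0.343%. The 5 most abundant brain-leading genes of a library held 47.5% of this sum in the pons and 38.3% in the thalamus, and 21.2% in the frontal cortex.

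The posterior pituitary and the stalk played no part in choosing the genes. The median gene in both lay between its levels in the brain and in the other libraries. The rule held the brain above those 84 libraries, so this order is a description. By gene, the posterior pituitary lay between the lowest brain and the highest other library in 50 genes, and the stalk in 24. At or below the highest other library were 69 and 102, and at or above the lowest brain library 17 and 10. The median brain-leading gene was at 19.3 FPKM in the posterior pituitary and 11.3 in the stalk. Their summed FPKM was 0.637% and 0.535% of these libraries. Of the 136 genes, 127 reached 1 FPKM in the posterior pituitary and 117 in the stalk, against 134 or 135 in each brain library and 37 to 99 in the 84 other libraries. None was listed at 0 in either. With 1 library each, differences between them have no replicate check.

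Relative to the brain median, the median brain-leading gene was at -1.93 on the log2(FPKM + 1) scale in the posterior pituitary and at -2.49 in the stalk, while the medians over all genes tested were 0.13 and 0.39. The brain side of these differences was used by the rule. On the same scale, the posterior pituitary was at least 2-fold below the brain median in 121 genes, at least 4-fold in 64 and at least 8-fold in 13. In the stalk these counts were 120, 93 and 50. The posterior pituitary was at or above the lowest brain library in 17 of the 136 genes, against 94.1% of all genes tested, and the stalk in 10, against 94.7%. Among the genes at 10 FPKM or more in all brain libraries the shares were 82.8% and 86.3%. Thalamus or pons was the lowest brain library in 13 of these 17 and 9 of these 10 genes. Without the thalamus 11 genes were at this level in the posterior pituitary. Quantile normalization gave 11 genes for the posterior pituitary and 4 for the stalk, and rescaling to equal totals gave 18 for the stalk.

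Seen from below, the posterior pituitary exceeded all 84 other libraries in 67 of the 136 genes, and the stalk in 34. Of all genes tested, 1.25% and 2.71% did so; the rule kept those 84 libraries low for the brain-leading genes, so these shares are printed as a description. Compared with the anterior pituitary alone, the posterior pituitary was higher in 131 genes and the stalk in 122. The 4 genes at or above the lowest brain library in both pituitary libraries were part of 23 that were so in at least 1.

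Between the 2 pituitary libraries, which the rule did not use, the posterior pituitary was higher in 106 of the 136 genes. It was at least 2-fold higher on the log2(FPKM + 1) scale in 42 (30.9%), against 3.05% of all genes tested. The stalk was at least 2-fold higher in 4 (2.9%), against 6.80% of all genes. The median posterior minus stalk difference was 0.55 over the brain-leading genes and -0.21 over all genes tested. Quantile normalization, which set the latter to 0, gave 0.85 for the brain-leading genes.

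**Figure D4:**
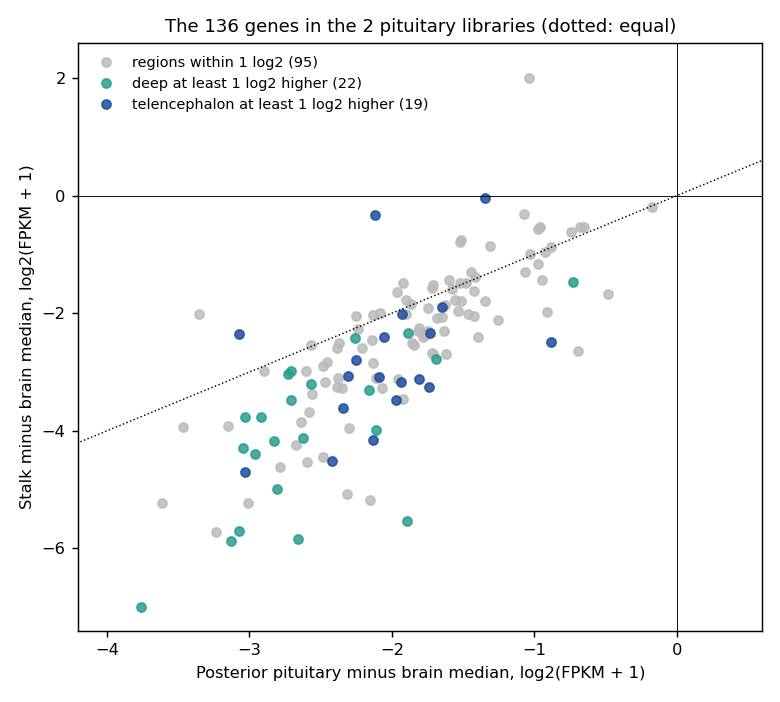
Difference from the brain median in the posterior pituitary (x axis) and in the stalk (y axis), both as log2(FPKM + 1); each point is 1 of the 136 brain-leading genes, coloured by regional difference, and the dotted line marks equal differences. Most points lie below the line, and 1 gene lies above the brain median in the stalk.

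Levels in the pituitary libraries were also set out by regional type. The 22 genes at least 1 log2 unit higher in the deep brain had a median of -2.71 in the posterior pituitary and -3.88 in the stalk, relative to the brain median. The 19 genes higher in the telencephalon had -2.05 and -3.07, and the other 95 genes -1.78 and -2.12. These subsets were formed after the values were seen and were not tested. By level, the posterior pituitary resembled the temporal cortex most (Pearson's r = 0.94 across the 136 genes) and the thalamus least (0.79). The stalk resembled the posterior pituitary more (0.87) than any brain library (0.57 to 0.75). Genes with a larger gap were lower in the stalk: the 20 genes with a gap of at least 2 had a median of -4.32 there and the 88 with a gap under 1 had -2.05. Gap and stalk difference share the brain level, so they are not independent.

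A few genes went against the general order. ENSBTAG00000014525 was at 54.2 FPKM in the stalk, above all 8 brain libraries, which ran from 5.47 in the thalamus to 47.2 in the midbrain with the 4 telencephalon libraries at 11.7 to 14.1. It was at 5.70 FPKM in the posterior pituitary and listed at 0 in the anterior pituitary, and besides the anterior eye (4.52) no other library exceeded 0.308. ENSBTAG00000009873 was at 40.6 FPKM in the stalk, within its brain range of 18.5 (pons) to 108 (cerebral cortex), and at 15.8 in the posterior pituitary. At the other end, ENSBTAG00000000835 was at 8.29 FPKM in the stalk and 61.0 in the posterior pituitary, with 313 to 444 in the telencephalon and 658 to 1612 in the deep brain. ENSBTAG00000017044 had the lowest level relative to the brain in both, at -7.00 in the stalk and -3.76 in the posterior pituitary.

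In the posterior pituitary the genes nearest to their brain level, among those that passed the filter on low values, were ENSBTAG00000043548 and ENSBTAG00000018770. ENSBTAG00000043548 was at 69.6 FPKM there and 29.9 in the stalk. It varied widely in the brain, from 32.2 in the hippocampus, 39.7 in the diencephalon and 53.8 in the midbrain to 288 in the thalamus. ENSBTAG00000018770 was nearly even, with 23.8 to 42.7 FPKM in the brain, 18.6 in the posterior pituitary and 20.2 in the stalk, and also 20.5 in the pineal gland and 23.0 in the pigment epithelium, close below the lowest brain library. ENSBTAG00000018326, by contrast, was at 10.4 FPKM in the posterior pituitary and 2.74 in the stalk, against 55.4 to 165 in the brain, and at 0.143 in the anterior pituitary.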

How the data were processed

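RNA was sequenced from 94 cattle libraries. The authors deposited 1 table of FPKM values, made with HISAT2 and StringTie on the build UMD3.1, per the submitters' processing notes. Software versions, the annotation used and any filters: not given in the sources used here. Low values shared no common step between libraries. Depth per library is therefore unknown, and counting error could not be computed. Values were analysed as log2(FPKM + 1), which understates folds of low genes. Genes reaching 1 FPKM in 3 or more libraries (18031) were compared between telencephalon and deep brain with limma 3.58.1 in R 4.3.3 (trend, two-sided, Benjamini-Hochberg adjustment), a step also tested on simulated data. Other comparisons are counts beside the share of all genes. Python 3.11.15 with numpy 2.4.6 and pandas 2.3.3 was used for these.

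The rule for named genes takes those leading by gap, brain level, regional difference, pituitary difference and likeness to the leading gene, with at most 2 identifiers in each direction, since none matched a symbol in the gene table for ARS-UCD2.0. Functional gene lists and marker lists could not be used for the same reason. The members and lists were chosen with earlier results of these data known.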

Additional observations from a re-analysis of the deposited data

Results flagged for a closer look

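In each group of 4 brain libraries, the shares and medians of the brain-leading genes and the FPKM of the named genes were screened for a library far from the other 3, in 34 sets of values. Chance flags about 1 in 20 such sets, and 2 were found. ENSBTAG00000013534 was at 2659 FPKM in the temporal cortex, far above the other 3 telencephalon libraries. ENSBTAG00000014832 was at 58.7 FPKM in the hippocampus, far above the 3 cortex libraries.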

How the results depend on the processing

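No paired analysis was possible because the replicate numbers only follow the order of deposit and pair no libraries. Depth is unknown, so what it limits could not be judged. The count of brain-leading genes called between regions was 0 in every setting but 1: the spread from all libraries gave 17, and 337 of all genes. A pseudocount of 0.1 called 3 of all genes, none of them brain-leading.

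Quantile normalization moved the genes without regional overlap to 13 (deep higher) and 6 (telencephalon higher), those at the lowest brain level to 11 (posterior pituitary) and 4 (stalk), the medians against the brain to -2.20 and -3.03, and the share of FPKM to 3.66% (telencephalon) and 4.56% (deep). Rescaling to equal totals left 1 gene with the telencephalon on top, against 0.749% of all genes tested. It put 18 genes at the lowest brain level in the stalk. Without the most abundant gene, a setting chosen after seeing the data, the mean share of FPKM was 2.49% (telencephalon) and 3.20% (deep). A pseudocount of 0.1 gave medians of -2.17 (posterior pituitary) and -2.86 (stalk).

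Leaving out 1 brain library at a time gave 21 to 32 genes with the deep brain on top (32 without the pons). Of all genes tested, 2.85% to 4.99% were so. With the telencephalon on top were 2 to 13 genes (9 without the temporal cortex, 13 without the diencephalon), against 1.4% to 4.89% of all genes. The same settings gave 11 to 17 genes at the lowest brain level in the posterior pituitary and 0 called genes throughout.

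Ranking the genes again without each brain library kept 105 (pons) to 136 of the 136, and after rescaling to equal totals 110 of them, among 113. Over all these re-ranked lists, the posterior pituitary was at the lowest brain level in 10 to 19 genes, the stalk in 4 to 14, and the stalk was at least 2-fold above the posterior pituitary in 2 to 8. The medians against the brain ran from -2.10 to -1.86 (posterior pituitary) and from -2.83 to -2.47 (stalk).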
